A study of Mus musculus with 12 samples.

Results

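The enzymes described here handle adenine and the purines made from it. They were chosen by name as 9 genes (Aprt, Xdh, Hprt, Ada, Adk, Pnp, Gda, Ampd3 and Nt5e), and 8 of them were read from the 22053 rows of a table of whole kidney transcript levels. Aprt was not analysed here. RNA was sequenced from the kidneys of 12 C57BL/6 mice, with 1 library per mouse and 4 mice per group. Control mice ate a diet without adenine, CKD mice ate the same diet with 0.2% adenine between the ages of 8 and 16 weeks, which induces chronic kidney disease, and CKD+Fe mice ate the adenine diet and were loaded with iron by weekly intraperitoneal iron dextran at 0.5 g/kg. Control and untreated CKD mice received weekly injections of saline vehicle (PBS), so injection was shared by all groups. The sex of the mice is not given in the labels used here. Levels are given in FPKM, fragment counts scaled by the length of the transcript and the size of the library, so that they can be compared between genes. In this model the diet supplies a substrate of the pathway and also injures the kidney, and these components of the treatment cannot be told apart.

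Purines are built from small precursors (de novo synthesis), recovered from free bases and nucleosides (salvage), or broken down to urate. Phosphoribosyltransferases return free bases to nucleotides, adenosine kinase does so for adenosine, and deaminases and phosphorylases lead toward hypoxanthine, xanthine and urate. Xanthine dehydrogenase catalyses the last oxidations to urate, and when adenine is in excess it also oxidises adenine to dihydroxyadenine, a poorly soluble product that crystallises in kidney tubules.

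In CKD kidneys Xdh, Gda and Ampd3 were 2.91 to 5.22 times their control mean, and adenosine kinase (Adk) was 0.559 times its control mean. In these 4 genes no CKD mouse overlapped a control mouse. Ada, Pnp and Nt5e did not pass the test as deposited, but Pnp and Nt5e passed as lower once the libraries were rescaled, and the directions of Hprt, Ada and Pnp depended on the scaling. In CKD+Fe against CKD, none of the 8 genes passed the test. Each difference was tested with limma on log2(FPKM + 1) over the 13148 genes that reached 1 FPKM in 4 or more mice, with Benjamini-Hochberg adjustment over all of them and a threshold of 0.05. Fold changes on this scale understate the change of low genes.

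The background for these counts was high. In CKD against control, 54.6% of all tested genes passed as higher and 13.3% as lower, while 44.6% had every CKD mouse above every control mouse and 10.5% had every CKD mouse below. Against this, 4 of the 8 enzymes passed as higher and 1 as lower, with 3 not passing, and their median log2 difference was 0.34 beside 0.50 over all genes, so that the number of higher calls was close to the background. Calls followed the scaling. With libraries rescaled by the median of ratios, the share of higher calls among all called genes moved from 80.4% to 46.7%, the median over all genes from 0.50 to -0.03, and the 8 enzymes were called 3 higher and 4 lower. Kap alone, an androgen-responsive gene of the proximal tubule, held 10.6% to 12.7% of the summed FPKM in control mice and 0.188% to 1.25% in CKD mice. The part of Kap in the shift with scaling was not tested. Because calls followed the scaling, values after rescaling are given beside the deposited ones.

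Read totals are unknown for FPKM, but the step between low values gave relative depths of 0.677 to 1.0 times that of the control mouse 012811, with 0.747 to 0.804 in the CKD mice. The lowest values among these genes were those of Ada, at 1.20 to 3.35 FPKM over all mice, and of Gda in control mice, down to 0.772 FPKM. The libraries of control mouse 042301, CKD mouse 110310 and CKD+Fe mouse 042702, stood apart from their groups in an earlier analysis of these data. Without these 3 mice each of the 8 enzymes kept its direction and its side of the threshold in all 3 comparisons, and the log2 differences of CKD against control were 1.82 for Xdh, 1.91 for Gda, 1.78 for Ampd3, -0.83 for Adk and 0.40 for Hprt. Proximal tubule markers, which define the bulk of the kidney cortex, were detected in every group, but all 10 were lower in CKD against control, and their sum without Kap ranged from 5696 to 7378 FPKM in control mice, 536.3 to 1126 with CKD and 690.7 to 1939 with CKD and iron. All 9 macrophage markers were higher (summed 121.1 to 250.4 FPKM in control, 1765 to 3680 in CKD, 1646 to 3748 in CKD+Fe), as were all 6 markers of fibroblasts (79.15 to 111.8, 366.2 to 661.4 and 343.7 to 456 FPKM). Of 9 T and B cell markers 6 were tested and 5 were higher, with sums of 4.25 to 9.04 FPKM in control mice, 6.98 to 28.7 with CKD and 19.2 to 33.5 with CKD and iron. One marker was lower among 6 of other nephron segments, 1 among 6 endothelial ones and 1 among 5 tested erythroid ones, and 0 of 6 urothelial markers passed by limma, with 0 at an unadjusted p under 0.05. No listed marker was at 0 in all mice. The part of these cell types in the values below was not tested, and in whole tissue fewer cells of a type and less RNA per cell cannot be told apart.

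**Figure D1:**
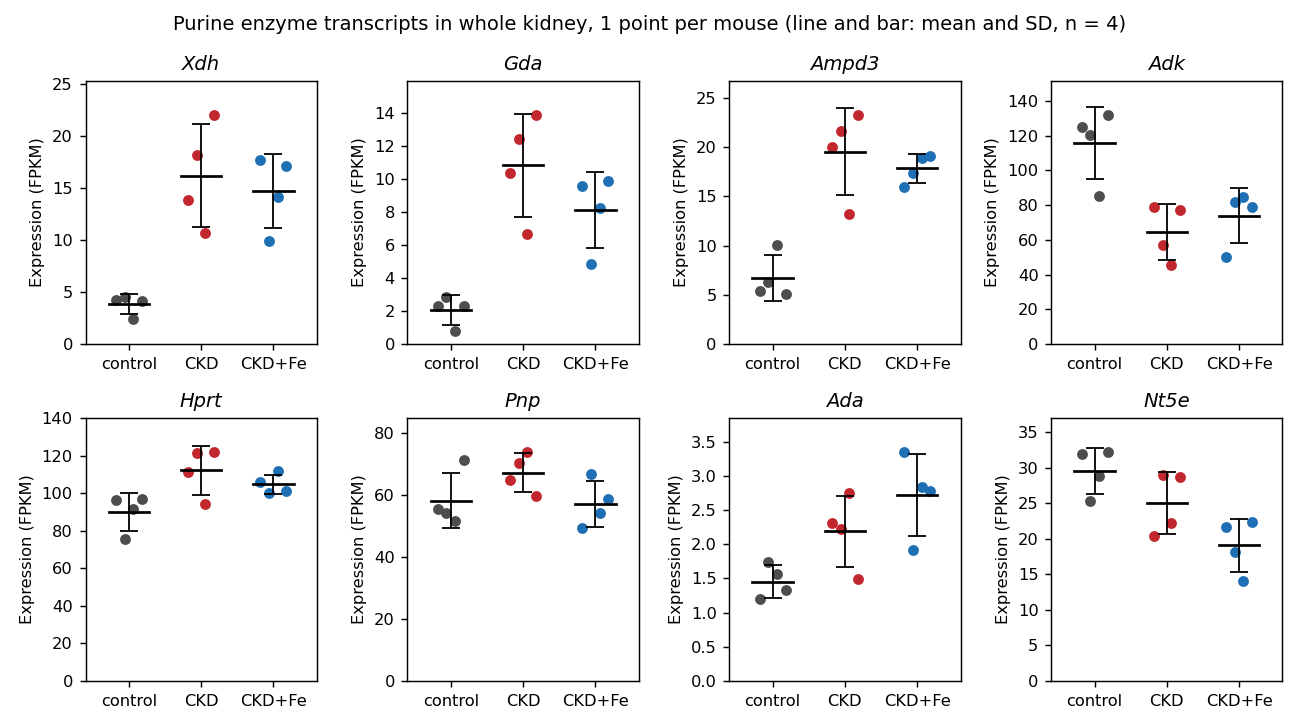
FPKM (vertical, from 0) of each of the 8 enzymes in each of the 12 mice, by group, with 1 point per mouse, a line at the group mean and bars for the SD. Xdh, Gda and Ampd3 lie higher and Adk lower in every CKD mouse than in every control mouse, while the CKD and CKD+Fe points of each gene overlap.

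Xdh encodes xanthine dehydrogenase, which carries hypoxanthine to xanthine and xanthine to urate (ENSMUSG00000024066, GRCm38 chr17:73883908-73950182, minus strand). Its FPKM in the control mice 012811, 012822, 042301 and 042310 was 4.26, 4.55, 2.42 and 4.11. In the CKD mice 021320, 022301, 110310 and 120102 it was 13.9, 18.2, 10.7 and 22.0, and in the CKD+Fe mice 042702, 062910, 111710 and 122320 it was 17.7, 9.96, 14.1 and 17.2. Every adenine-fed mouse was above every control mouse. The log2 difference of CKD against control was 1.81 (SE 0.235, limma adjusted p = 2.1e-05, n = 4 against 4), from a mean of 3.84 ± 0.962 (SD) to 16.2 ± 4.94 FPKM. The exact two-sided permutation p was 0.0286, the smallest that 4 mice against 4 can give. As deposited it passed in each of the 12 fits that left out a mouse, and after rescaling the log2 difference was 1.28 and passed as well (adjusted p = 0.000281, with 6.17e-07 to 0.00114 over all alternatives). Of all tested genes, 94.0% had a lower log2 difference than Xdh.

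Gda encodes guanine deaminase, which turns guanine into xanthine and thus feeds xanthine dehydrogenase (ENSMUSG00000058624, chr19:21391307-21473445, minus strand). Its FPKM was 2.32, 2.88, 0.772 and 2.30 in control mice, taking the mice of each group in the same order throughout. It was 10.3, 12.4, 6.67 and 13.8 in CKD mice and 9.57, 4.83, 8.25 and 9.84 in CKD+Fe mice. As for Xdh, control mouse 042301 and CKD mouse 110310 were the lowest of their groups and CKD mouse 120102 the highest. The log2 difference of CKD against control was 1.96 (SE 0.277, limma adjusted p = 4.18e-05), 1.49 after rescaling, the largest of the 8 enzymes on both scales. Mean FPKM was 2.07 ± 0.905 (SD, n = 4) in control and 10.8 ± 3.11 in CKD mice.

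Xdh and Gda tracked each other from mouse to mouse. Among 13131 genes compared, the gene whose centred log2(FPKM + 1) lay closest to that of Xdh over the 12 mice was Gda, and the gene closest to Gda was Xdh. Their root mean square distance was 0.156 on the log2 scale, where the median gene lay 0.721 from Xdh and 0.776 from Gda. The 4 mice fell in the same order for both genes in the control group and in the CKD group. In the CKD+Fe group the order differed, with Xdh highest in mouse 042702 and Gda highest in mouse 122320. With group means removed, Pearson's r of the 2 genes over the 12 mice was 0.964, as a description of libraries that share their depth and scaling. The next closest genes were Bcl2l11 to Xdh (0.182), which encodes a pro-apoptotic protein of the Bcl2 family, and Olfml1 to Gda (0.205).

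**Figure D2:**
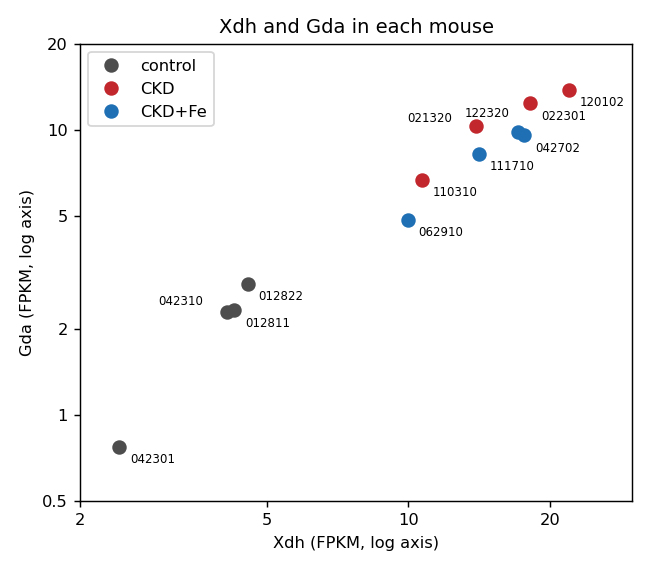
Xdh (horizontal, FPKM, log axis) against Gda (vertical, FPKM, log axis), 1 point per mouse, coloured by group and labelled with the number of the mouse. The 4 control mice lie at the lower left with 042301 below the rest, and the 8 adenine-fed mice at the upper right, with CKD mouse 120102 highest and CKD+Fe mouse 062910 lowest among them.

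Ampd3 encodes an AMP deaminase, which converts AMP to IMP and so moves adenine nucleotides toward hypoxanthine (ENSMUSG00000005686, chr7:110768206-110812405). Its FPKM was 5.42, 6.36, 10.05 and 5.05 in control mice and 20.1, 21.6, 13.2 and 23.2 in CKD mice. It was 15.98, 17.4, 18.9 and 19.1 in CKD+Fe mice, the tightest group of the 3. The lowest CKD mouse, 110310, was above the highest control mouse, 042301, which was the same mouse that held the lowest Xdh and Gda. The log2 difference of CKD against control was 1.42 (SE 0.202, limma adjusted p = 4.33e-05). After rescaling it was 0.86 (adjusted p = 0.00166), the range over all alternatives being 7.07e-08 to 0.00228, but the groups then overlapped. The closest genes were Grhl2, an epithelial transcription factor (distance 0.105), and Ddhd1, a phospholipase (0.142). In the CKD group the mice took the order 120102, 022301, 021320 and 110310 from high to low in Xdh, Gda, Ampd3 and Hprt alike.

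Promoters are printed for the genes with the clearest differences and for Hprt as a housekeeping gene. They come from RefSeq (GRCm38.p6), which gave a promoter for 7 of the 8 enzymes, Xdh not among them, and run 5′ to 3′ from 250 bases before to 50 bases from the start of transcription. Capitals mark the letters CCAAT or GGGCGG on either strand (reverse complements ATTGG and CCGCCC). In Adk an ATTGG and a GGGCGG overlap. The windows are chr19:21472612-21472911 (minus strand) for Gda, chr7:110768372-110768671 for the first of 3 Ampd3 promoters, chr14:21052324-21052623 for the first of 2 Adk promoters and chrX:52987828-52988127 for Hprt.
Gda: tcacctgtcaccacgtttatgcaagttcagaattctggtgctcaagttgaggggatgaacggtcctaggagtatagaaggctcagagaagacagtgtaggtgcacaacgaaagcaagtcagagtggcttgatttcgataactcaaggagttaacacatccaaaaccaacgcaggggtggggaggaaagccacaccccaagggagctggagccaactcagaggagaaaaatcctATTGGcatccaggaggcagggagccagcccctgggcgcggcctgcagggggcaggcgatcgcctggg
Ampd3: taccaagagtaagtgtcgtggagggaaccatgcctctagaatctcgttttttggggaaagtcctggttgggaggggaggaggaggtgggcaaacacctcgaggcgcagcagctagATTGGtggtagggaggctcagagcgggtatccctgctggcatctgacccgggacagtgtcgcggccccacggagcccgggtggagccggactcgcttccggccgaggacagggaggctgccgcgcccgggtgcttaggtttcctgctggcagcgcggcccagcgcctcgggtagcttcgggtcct
Adk: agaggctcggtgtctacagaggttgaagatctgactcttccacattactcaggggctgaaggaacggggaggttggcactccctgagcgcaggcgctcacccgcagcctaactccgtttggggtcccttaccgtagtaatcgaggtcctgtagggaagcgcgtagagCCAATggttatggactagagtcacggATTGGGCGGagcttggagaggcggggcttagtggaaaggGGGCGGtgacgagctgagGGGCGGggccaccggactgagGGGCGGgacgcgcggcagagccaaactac
Hprt: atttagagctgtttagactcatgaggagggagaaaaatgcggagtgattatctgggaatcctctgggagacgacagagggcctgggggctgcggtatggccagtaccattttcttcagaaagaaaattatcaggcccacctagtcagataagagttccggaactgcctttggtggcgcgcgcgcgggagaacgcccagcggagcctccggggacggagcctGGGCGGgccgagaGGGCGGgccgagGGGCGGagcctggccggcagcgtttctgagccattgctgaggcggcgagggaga
GGGCGG was found in 0 of the 4 windows of Gda and Ampd3, 4 times in the Adk window and 3 times in that of Hprt. Over 32851 promoters of 300 bases, 35.7% held GGGCGG, 37.4% CCAAT and 13.6% TATAAA on either strand. None of the windows of the 7 enzymes held TATAAA. The Gda window held 9 CpG, near the median of 7 over all promoters, and the windows of Ampd3, Adk and Hprt printed here held 22, 21 and 22. These counts describe the letters only.

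Adk encodes adenosine kinase, which phosphorylates adenosine to AMP and was the most abundant of the 8 transcripts in control kidneys (ENSMUSG00000039197, chr14:21052574-21448568). Its FPKM was 124.8, 120.4, 85.4 and 131.6 in control mice. In CKD mice it was 78.9, 57.1, 45.4 and 77.0, and in CKD+Fe mice 50.4, 81.7, 84.6 and 79.2. Every adenine-fed mouse was below every control mouse, though control mouse 042301 came close to CKD+Fe mouse 111710. The log2 difference of CKD against control was -0.84 (SE 0.213, limma adjusted p = 0.00327), and -1.46 after rescaling. Only 6.6% of tested genes had a lower log2 difference. Its nearest genes over the 12 mice were Abcd3, a peroxisomal membrane transporter (distance 0.114), and Dld, the dihydrolipoamide dehydrogenase of mitochondrial dehydrogenase complexes (0.121), and both were lower on average in CKD (87.3 and 89.2 FPKM) than in control (160.6 and 150.5 FPKM). Adk and the proximal tubule markers were both lower in CKD than in control mice. Within the CKD group the mouse with the lowest Adk, 110310, had the highest marker sum (8679 FPKM) and mouse 022301 the lowest sum (1562 FPKM). Without Kap these sums were 1124 and 536.3 FPKM, and mouse 021320, with the highest Adk, was highest at 1126 FPKM. Within the CKD+Fe group mouse 042702 had both the lowest Adk and the lowest sum (2682 FPKM, and 690.7 FPKM without Kap). How Adk relates to these markers was not tested.

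Ada encodes adenosine deaminase, which competes with adenosine kinase for adenosine and makes inosine (ENSMUSG00000017697, chr2:163726584-163750239, minus strand). It had the lowest level of the 8 in every group. FPKM was 1.20, 1.73, 1.56 and 1.32 in control mice, 2.31, 2.22, 2.74 and 1.49 in the CKD group and 3.35, 1.91, 2.84 and 2.78 in the CKD+Fe group. In CKD, 3 of 4 mice were above all control mice and mouse 120102 was not. The log2 difference of 0.37 (SE 0.164) did not pass (limma adjusted p = 0.0602), became -0.03 after rescaling (adjusted p = 0.895) and was -0.45 with quantile normalization (adjusted p = 0.0341), with adjusted p from 0.0207 to 0.895 over all alternatives. Without CKD mouse 120102 it was 0.48 (adjusted p = 0.0207), and without CKD+Fe mouse 062910, which changes only the spread, adjusted p was 0.0443. The nearest genes were Trmt1l (distance 0.097) and Zswim3 (0.102), which was also low at a mean of 1.11 FPKM in control mice.

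Both enzymes act on adenosine, and their ratio within a mouse is free of any factor that scales a whole library, though not of quantile normalization, where Ada was at -0.45 and Adk at -0.71 in CKD against control. Log2 of Ada over Adk averaged -6.31 ± 0.439 in control mice (SD, n = 4), -4.88 ± 0.692 in the CKD group and -4.77 ± 0.626 in the CKD+Fe group. The highest control mouse, at -5.78, was below the lowest CKD mouse, at -5.69, so the groups did not overlap, and the mean ratio was 2.69-fold higher in CKD. Log2 of Xdh over Hprt was -4.59 ± 0.489, -2.84 ± 0.295 and -2.87 ± 0.368, a 3.37-fold higher ratio in CKD than in control, again without overlap. These ratios are descriptions without a test.

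Hprt encodes hypoxanthine-guanine phosphoribosyltransferase, which salvages hypoxanthine and guanine, and it is often used as a reference gene (ENSMUSG00000025630, chrX:52988137-53021659). FPKM was 96.6, 75.6, 91.4 and 97.0 in control mice, 111.2, 121.3, 94.1 and 121.9 in the CKD group and 105.7, 100.3, 111.6 and 101.2 in the CKD+Fe group. CKD mouse 110310 overlapped the control group, and all CKD+Fe mice were above all control mice. After rescaling, all CKD+Fe mice were instead below all control mice. As deposited, the log2 difference of CKD against control was 0.31 (SE 0.125, limma adjusted p = 0.0393, exact permutation p = 0.0857), but after rescaling it was -0.30 (adjusted p = 0.0438), so that Hprt passed in opposite directions. Adjusted p ranged from 0.00607 to 0.137 over all alternatives. It passed in 5 of the 12 fits that left out a mouse and was lost without any 1 of control mouse 012822 (0.23, adjusted p = 0.137), CKD mice 021320 (0.0671), 022301 (0.0996) or 120102 (0.101), or CKD+Fe mice 062910 (0.0501), 111710 (0.0504) or 122320 (0.0522). It was also lost in a fit of the 2 groups alone (adjusted p = 0.077). The nearest genes were Calr3 (distance 0.052) and Cr1l (0.069), a complement regulator. Calr3 was low, at a mean of 0.848 FPKM in control and 1.28 FPKM in CKD mice. Hprt varied little, and a gene without any variation would lie only 0.181 from it.

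Pnp encodes purine nucleoside phosphorylase, which splits inosine and guanosine into base and sugar phosphate (ENSMUSG00000021871, chr14:50944302-50965237). A near-identical neighbour, Pnp2, may share reads with it, so its level is uncertain to that extent. FPKM was 55.7, 54.2, 51.6 and 71.5 in control mice, 65.1, 70.4, 73.9 and 59.7 in the CKD group and 49.3, 66.8, 54.2 and 58.6 in the CKD+Fe group. The groups overlapped, and the log2 difference of CKD against control, 0.21 (SE 0.136), did not pass (limma adjusted p = 0.182). After rescaling it was -0.40 and passed as lower (adjusted p = 0.0389, with 0.0389 to 0.453 over all alternatives). Its nearest genes were Nap1l1, a histone chaperone (distance 0.117), and Kif9, a kinesin (0.124). These say little, since a gene without any variation would lie only 0.186 from Pnp.

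Nt5e encodes the ecto-nucleotidase that releases adenosine from AMP at the cell surface, which in kidney is found on proximal tubule cells and on fibroblasts (ENSMUSG00000032420, chr9:88327197-88372092). FPKM was 31.9, 25.3, 28.8 and 32.2 in control mice, 20.4, 28.9, 22.3 and 28.6 in the CKD group and 21.7, 18.2, 14.1 and 22.3 in the CKD+Fe group. CKD mice overlapped control mice, while all CKD+Fe mice were below all control mice. The log2 difference of CKD against control was -0.24 (SE 0.165, limma adjusted p = 0.217) as deposited and -0.84 after rescaling, where it passed (adjusted p = 0.000525) and the groups no longer overlapped. Adjusted p ranged from 0.000525 to 0.468 over all alternatives. Fbxl2 was among its nearest genes (distance 0.206), where a gene without any variation would lie 0.327 from Nt5e. Log2 of Nt5e over Ada, the enzymes that make and remove adenosine outside and inside cells, averaged 4.35 ± 0.393 in control mice (SD, n = 4), 3.54 ± 0.571 in the CKD group and 2.82 ± 0.407 in the CKD+Fe group, and only the CKD+Fe group lay wholly below control.

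**Figure D3:**
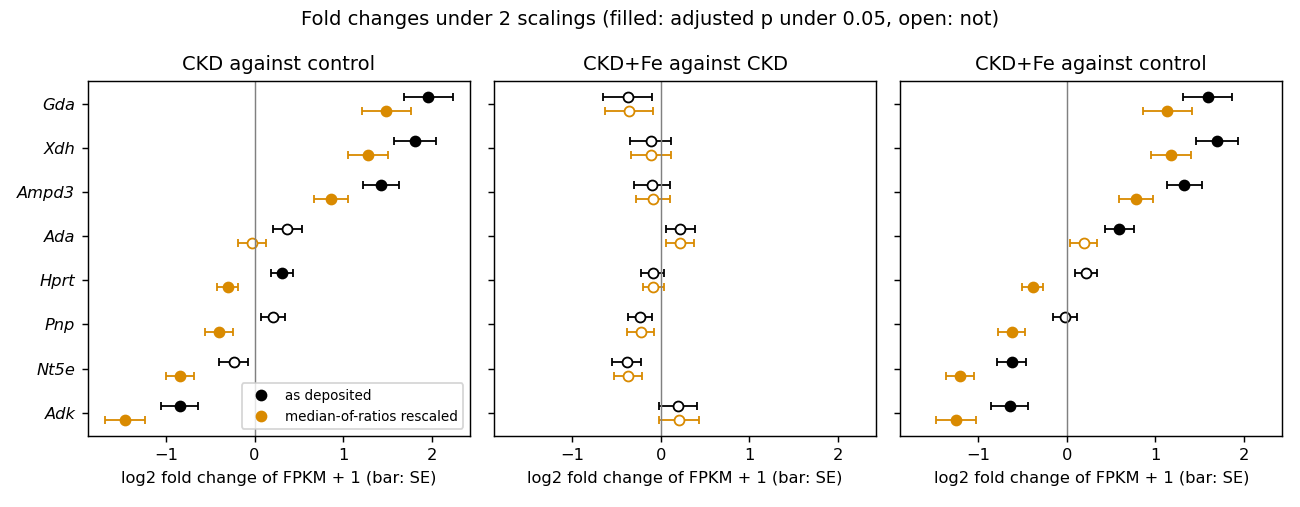
Log2 difference (horizontal, on log2(FPKM + 1)) of each of the 8 enzymes in the 3 comparisons, as deposited and after median-of-ratios rescaling, with bars for the standard error and filled points past the threshold. Xdh, Gda and Ampd3 are above 0 and Adk below 0 on both scales in the comparisons with control, Hprt, Ada and Pnp change sign with the scaling in CKD against control, and the differences of CKD+Fe against CKD lie between -0.38 and 0.22 as deposited.

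The order of levels in control kidneys was Adk, Hprt, Pnp, Nt5e, Ampd3, Xdh, Gda and Ada, from 115.6 to 1.45 mean FPKM. The ranges of Adk and Hprt overlapped there, as did those of Xdh and Gda and of Gda and Ada. In CKD kidneys Hprt was the highest at 112.1 mean FPKM, above Pnp (67.3) and Adk (64.6), which overlapped. From Nt5e down to Gda each gene in CKD overlapped the next, at 25.1, 19.5, 16.2 and 10.8 mean FPKM, and Ada stayed apart at 2.189. In CKD+Fe kidneys the order was the same but for Adk (74.0) above Pnp (57.2), which again overlapped.

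Iron dextran injected during the adenine diet addressed whether iron loading changed these levels further. None of the 8 enzymes passed in CKD+Fe against CKD by limma, and 1 had an unadjusted p under 0.05. The background was as small, since 0.00761% of all genes (1 gene) passed as higher and 0% as lower, 790 genes had an unadjusted p under 0.05, and 1.35% had every CKD+Fe mouse above every CKD mouse and 1.09% every one below. The gene with the unadjusted p was Nt5e, at -0.38 (SE 0.165, unadjusted p = 0.0359, limma adjusted p = 0.797), where 2 CKD+Fe mice (062910 and 111710) were below all CKD mice. Gda was lower by 0.37 (log2 difference -0.37, SE 0.277) and Xdh by 0.11 (-0.11, SE 0.235), neither past the test, and CKD+Fe mouse 062910 had the lowest value of its group in both. Ada and Adk were at 0.22 (SE 0.164) and 0.20 (SE 0.213), Pnp at -0.23 (SE 0.136), Ampd3 at -0.10 (SE 0.202) and Hprt at -0.09 (SE 0.125). A missed threshold does not show equal levels at this number of mice.

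In CKD+Fe against control, which shares the control mice with the first comparison, 4 enzymes passed as higher (54.4% of all genes did) and 2 as lower (11%). The log2 difference was 1.70 for Xdh (limma adjusted p = 4.74e-05), 1.59 for Gda (0.000261) and 1.33 for Ampd3 (9.58e-05), beside 1.81, 1.96 and 1.42 in CKD against control. Ada passed here at 0.59 (adjusted p = 0.00628) but not after rescaling (0.19, adjusted p = 0.317), with 0.000591 to 0.317 over all alternatives. Adk was lower at -0.65 (adjusted p = 0.0166, up to 0.0931 among the alternatives), and without CKD+Fe mouse 042702, the lowest of its group, it was -0.47 and did not pass (adjusted p = 0.0566). Nt5e was lower at -0.62 (adjusted p = 0.00487) and passed in all 12 fits that left out a mouse. Hprt and Pnp did not pass as deposited, at 0.22 (adjusted p = 0.134) and -0.02 (0.899), and passed as lower after rescaling at -0.39 (0.015) and -0.62 (0.0039). Whether the 2 adenine-fed groups differ from control by unequal amounts is the CKD+Fe against CKD test given above.

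To place the 8 enzymes in the wider pathway, 55 other purine genes were read from the table, of which 44 were tested. In CKD against control 19 passed as higher, 13 as lower and 12 did not pass, with a median log2 difference of 0.31, where 54.6% of all genes passed as higher and 13.3% as lower with a median of 0.50. After rescaling 5 passed as higher and 21 as lower, with a median of -0.27, where 3571 and 4075 of the 13148 genes did, with a median of -0.03. In CKD+Fe against CKD 0 passed by limma, and 4 (Ak4, Nt5c1a, Entpd5 and Alpl) had an unadjusted p under 0.05. In CKD+Fe against control 19 passed as higher and 9 as lower, beside 54.4% and 11% of all genes, and after rescaling 7 and 21. The higher counts against control include genes such as Nt5c1a and Adora2b, which met the filter only with adenine-fed mice.

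Of 8 genes of de novo synthesis, 4 passed as higher in CKD and 0 as lower, but after rescaling 0 passed as higher and 3 as lower. Pfas, which makes the formylglycinamidine intermediate, went from 3.72 ± 0.335 (SD, n = 4) to 8.28 ± 2.39 FPKM, a log2 difference of 0.93 (limma adjusted p = 0.000834). Atic, which completes the ring to IMP, went from 11.2 ± 0.428 to 19.9 ± 1.26 FPKM (0.78), and Ppat, the committed step, from 10.9 ± 1.59 to 17.4 ± 4.03 (0.61). All 3 missed the threshold after rescaling, at 0.41, 0.19 and 0.03. The 3 that then passed as lower, named after their values were seen, were Gart (-0.44), Paics (-0.70) and Adsl (-0.82), which as deposited were at 0.15, -0.09 and -0.22.

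Of 13 tested genes of nucleotide interconversion, 4 passed as higher and 5 as lower, against 0 and 8 after rescaling. The highest were Impdh2, which leads IMP toward guanine nucleotides (log2 difference 0.77), Ampd2, an AMP deaminase like Ampd3 (0.77), and Ak1, a cytosolic adenylate kinase (0.76), and none of these passed after rescaling. The mitochondrial adenylate kinases Ak4 and Ak3 were among the lowest. Ak3 went from 128.1 ± 6.46 (SD, n = 4) to 75.6 ± 10.4 FPKM (-0.76, limma adjusted p = 0.00014), with no overlap. Ak4 was at -2.97 (SE 0.458), from means of 103.2 and 11.1 FPKM, but it rests on 3 control and 2 CKD mice, since the values of control mouse 012811 and CKD mice 021320 and 110310 were marked as failed. Both stayed past the threshold as lower after rescaling.

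Of 8 tested genes of the other breakdown steps, 4 passed as higher and 3 as lower, against 2 and 4 after rescaling. The higher ones were led by cytosolic nucleotidases, which strip phosphate from nucleotides. How far each of them, or Nt5c3 below, acts on purine rather than pyrimidine nucleotides was not tested. Nt5c3b went from 6.42 ± 2.497 (SD, n = 4) to 17.4 ± 1.92 FPKM (log2 difference 1.35) and passed as higher after rescaling, while Nt5c, at 39.2 ± 10.5 and 64.0 ± 14.7 FPKM (0.70), did not. Nt5c1a is among the 4, and among the 2 after rescaling. But it entered the test only through adenine-fed mice, since no control mouse reached 1 FPKM, and it is given by its levels alone. These were 0.0695, 0.119, 0 and 0.238 FPKM in control mice, 2.65, 2.02, 0.966 and 4.34 with CKD and 0.767, 1.60, 1.32 and 0.879 with CKD and iron. The lower ones were Urah (-0.51), which acts after urate oxidase, Nt5c3 (-0.47) and Mocos (-0.39), the sulfurase that activates the molybdenum cofactor of xanthine dehydrogenase. Mocos went from 7.64 ± 1.40 to 5.57 ± 0.607 FPKM (limma adjusted p = 0.0379) while Xdh rose. In Mocos the CKD and control mice overlapped, with CKD mouse 022301 at 6.155 FPKM above control mouse 042301 at 6.011 FPKM.

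Of 15 tested genes of extracellular nucleotides, nucleoside transport and adenosine receptors, 7 passed as higher and 5 as lower, against 3 and 6 after rescaling. Entpd1, the ecto-enzyme that converts ATP and ADP to AMP upstream of Nt5e, went from 2.84 ± 0.360 (SD, n = 4) to 15.6 ± 1.58 FPKM, the highest log2 difference of the 44 genes at 2.11 (SE 0.137, limma adjusted p = 8.49e-08). Slc43a3, a transporter of purine bases, went from 13.5 ± 1.32 to 42.5 ± 14.2 FPKM (1.52). Both were also higher after rescaling. Adora2b, a low-affinity adenosine receptor, is among the 7 and among the 3 after rescaling. It met the filter only with adenine-fed mice, since control mice 012822 and 042310 were at 0.995 and 0.891 FPKM. It is given by its levels alone, 1.18 ± 0.2796 FPKM in control and 4.91 ± 1.05 in CKD mice. On the lower side, Entpd5 (-1.37), Alpl (-1.23), the alkaline phosphatase that also makes adenosine from AMP, and Slc28a1 (-1.01), a concentrative nucleoside transporter, had no overlap between CKD and control mice and stayed lower after rescaling. Entpd1 is also carried by macrophages and Slc28a1 by proximal tubule cells, whose markers moved with these genes. The part of those cells was not tested, nor how far Slc28a1 carries purine nucleosides.

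**Figure D4:**
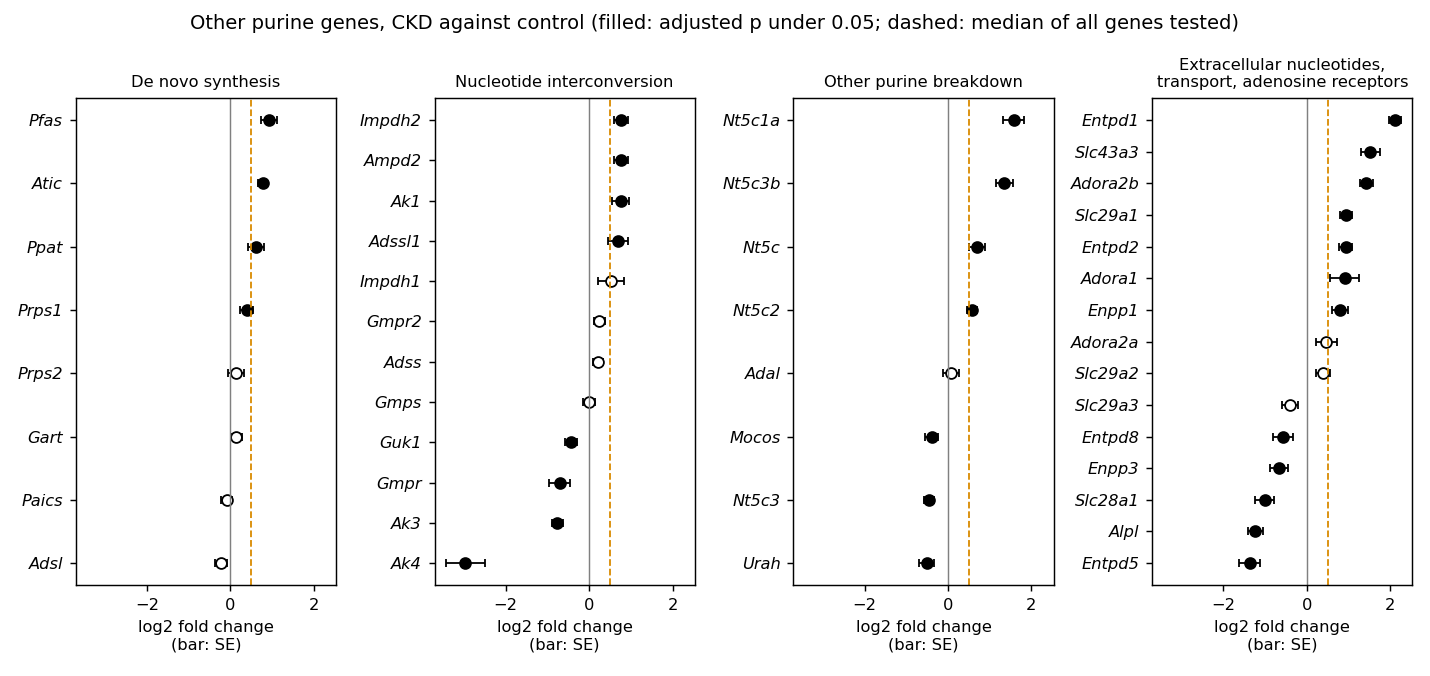
Log2 difference of CKD against control (horizontal, on log2(FPKM + 1)) for the tested purine genes except 1 of the interconversion group, by role, with bars for the standard error, filled points for genes past the adjusted threshold of 0.05 and a dashed line at the median of all genes tested, 0.50. Entpd1 is highest at 2.11 and Ak4 lowest at -2.97, and filled points lie on both sides of 0 in every role but de novo synthesis.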

How the data were processed

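Per the labels, total RNA from whole kidney was made into stranded mRNA libraries and sequenced as single-end reads of 50 cycles. The submitters' processing notes name bcl2fastq 2.19, STAR 2.5.2, Cufflinks 2.1.1 and the build GRCm38; the annotation release is not given in the sources used here. The authors deposited FPKM per gene for each mouse, with no replicates pooled and 0 per-sample columns left unmapped. Values that Cufflinks marked as failed (30 in 17 genes, 0 among the 8 enzymes) were set to missing, and the start positions, counted from 0 in the table, were moved by 1. Since FPKM are not counts, no count model was used.

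The 13148 genes that reached 1 FPKM in 4 or more mice were fitted together as log2(FPKM + 1) in limma 3.58.1 (R 4.3.3) with lmFit, contrasts.fit and eBayes with a trend over all 12 mice, and p-values were adjusted by Benjamini-Hochberg over all of them with a threshold of 0.05. Single members were also tested by a two-sided exact permutation over the 70 arrangements of 4 mice against 4, whose smallest p is 0.0286. The script was tested on simulated data. Alternatives were median-of-ratios rescaling, quantile normalization, a pseudocount of 0.1, no filter, a mean of at least 5 FPKM, array quality weights, no variance trend, fits of only the groups compared, leaving out each mouse, and leaving out the 3 mice that stood apart.

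The members, the lists of other purine genes and markers, and the tests were chosen with earlier results of these data known. Of the other purine genes, the 3 highest and 3 lowest log2 differences past the threshold in each role were named, and for each member the 2 genes of smallest root mean square distance. Aprt was not analysed here, and 2 genes that these rules name are not reported here. The errors given come from the spread between mice, which includes counting error, and counting error cannot be stated separately for FPKM. Python 3.11.15, numpy 2.4.6, pandas 2.3.3 and scipy 1.17.1 were used. No batch is given in the labels.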

Additional observations from a re-analysis of the deposited data

Results flagged for a closer look

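One of the 24 groups of 4 values looked at for the 8 enzymes stood out. Adk in CKD+Fe mouse 042702 was 50.42 FPKM, while the other 3 CKD+Fe mice were at 79.2 to 84.6 FPKM. The gap to the nearest mouse was 0.842 of the whole range of the group and above Dixon's 95% critical value for 4 samples. Chance flags about 1 in 20 groups. Without this mouse the log2 difference of Adk in CKD+Fe against control was -0.47 and did not pass (limma adjusted p = 0.0566).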

How the results depend on the processing

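In CKD against control, 64 of 71 member results under alternatives other than leaving out a mouse kept their direction and side of the threshold, as did 71 of 71 in CKD+Fe against CKD and 64 of 71 in CKD+Fe against control. With 1 mouse left out these were 87, 94 and 92 of 96. Over all genes, calls in CKD against control were 7181 higher and 1748 lower as deposited, 3571 and 4075 with rescaling and 3060 and 3363 with quantile normalization, and in CKD+Fe against control 7159 and 1442, 3427 and 3851, and 2605 and 2967. With median-of-ratios rescaling the enzymes called lower numbered 4 in CKD against control and 4 in CKD+Fe against control, and with quantile normalization 3 and 1. For the other purine genes in CKD against control, rescaling gave 5 higher and 21 lower, and quantile normalization gave 9 higher and 18 lower. In CKD+Fe against control they were 7 higher and 21 lower with rescaling, and 6 higher and 15 lower with quantile normalization. Leaving out 1 mouse, the enzymes called lower in CKD+Fe against control numbered 1 to 2. The direction reversed with rescaling for Hprt (-0.304 in CKD and -0.386 in CKD+Fe against control), Ada (-0.026 in CKD) and Pnp (-0.400 in CKD), with quantile normalization for Ada (-0.450 and -0.248), and with array quality weights for Pnp in CKD+Fe against control (0.008). With 1 mouse left out, Pnp in CKD+Fe against control ran from -0.097 to 0.079 and Xdh in CKD+Fe against CKD from -0.284 to 0.049. The cause of each reversal was not tested. Ada had no value with the filter on a mean of 5 FPKM, and the planned ratio of Xdh to Aprt was not run. No paired analysis was possible because the groups share no replicate numbers in the labels.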

Other observations

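Some purine genes were below the filter and have only levels, and the 2 given here were chosen after their values were seen. Uox, which encodes urate oxidase and acts on the product of Xdh, was listed at 0, 0.0510, 0.142 and 0.0706 FPKM in control mice. It was 0.905, 1.98, 0.650 and 2.13 FPKM in CKD mice and 0.361, 0.325, 0.366 and 0.732 FPKM in CKD+Fe mice. The CKD mice 022301 and 120102 were the highest of all 12, and they also held the 2 highest CKD values of Xdh and Gda. Aox1, an aldehyde oxidase that needs the same molybdenum cofactor as Xdh, was 0.101, 0.123, 0.228 and 0.0859 FPKM in control mice. In CKD mice Aox1 was 0.768, 0.714, 0.234 and 0.663 FPKM, and in CKD+Fe mice 1.67, 0.589, 1.22 and 1.75 FPKM. Every adenine-fed mouse was above every control mouse in both genes, at levels where FPKM are imprecise, and no test was run. In Aox1 this rests on CKD mouse 110310 at 0.234 FPKM against control mouse 042301 at 0.228 FPKM. Among all tested genes, 44.6% had every CKD mouse above every control mouse. That share covers CKD mice alone and genes above the filter, so it is not a matched background for these 2 genes. Other purine genes below the filter, such as Pnp2 and Slc28a2, overlapped between CKD and control mice.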
